A study of Mus musculus with 24 samples.

Results

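Kif3c and 9 other kinesin genes of neurons were followed across the frontal cortex of 24 mice: the kinesin-2 subunit genes Kif3a, Kif3b, Kif3c and Kifap3, the kinesin-1 heavy chain genes Kif5a, Kif5b and Kif5c, the kinesin-3 motor genes Kif1a and Kif1b, and Kif21a. The 10 genes were taken by name from the 52352 mouse genes in the files, and all 10 were among the 18239 genes with enough reads to test. The genes were chosen by the measured transgene effect on Kif3c, which was called lower in mice with a human TDP-43 transgene, so their levels with and without the transgene are given as a description and not as a test. In that comparison Kif3c had an adjusted p of 0.00623 in edgeR's quasi-likelihood test, and the next nearest of the 10, Kif3b, had 0.570.

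The mice came from a cross of progranulin-heterozygous (Grn+/-) with human TDP-43 transgenic (hTDP) animals, and each of the 4 genotypes had 6 mice, 3 female and 3 male. Their ages differed, so they were not all of 1 litter, and 4 of the 6 Grn+/- hTDP- mice had ages found in no other group. Grn+/+ hTDP- mice carried both Grn alleles and no transgene and were 9.44 to 10.79 months old, and Grn+/+ hTDP+ mice carried both alleles and the transgene at 9.44 to 10.07 months. Grn+/- hTDP- mice had 1 intact Grn allele and no transgene at 8.19 to 10.79 months, and Grn+/- hTDP+ mice had 1 intact Grn allele and the transgene at 9.44 to 10.07 months. Poly-A RNA was sequenced from 1 library per mouse. The sources used here give neither the promoter of the transgene nor how the Grn allele was made.

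Kinesins are motor proteins that use ATP to walk along microtubules, most of them away from the cell body of a neuron and towards the end of its axon. Kinesin-1 is built from heavy chains that move and light chains that bind cargo, kinesin-2 pairs Kif3a with Kif3b or Kif3c, and kinesin-3 motors carry precursors of synaptic vesicles. TDP-43, encoded by TARDBP, is an RNA-binding protein that prefers stretches of alternating U and G.

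Libraries held 61445842 to 100859149 estimated reads, and the 10 genes had 5053 (Kif3b) to 339266 (Kif5a) reads in a library. Human TARDBP had 4328 to 8162 reads in every transgenic library and 0 to 2 in the others, and Grn levels did not overlap between Grn+/+ and Grn+/- mice. The summed level of 10 oligodendrocyte markers ran from 1216 to 5536 CPM (reads of a gene relative to the scaled size of its library) over all libraries. The libraries that stood apart were 2. Replicate 2 of the Grn+/+ hTDP+ group listed 17669 genes above 0, against 22269 to 23272 in the others. It was not a small library: it held 97736984 reads, with 40188 transcripts above 0 against 65994 to 69846 in the others. Replicate 1 of the Grn+/- hTDP+ group was the lowest of all 24 for 8 of the 10 kinesins. Replicate numbers only name the mice. Some values of the 10 kinesins are given with and without these libraries. Values of other genes rest on all 24 libraries.

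Transcript abundance of the 10 genes spanned a wide range in this tissue. In TPM (transcript abundance corrected for transcript length and library size), Kif5a, the kinesin-1 heavy chain found mainly in neurons, stood highest at 1004 ± 110 (SD, n = 24) and Kif3b lowest at 32.8 ± 2.26. Between them came Kif1a at 443 ± 31.5, Kif5c at 274 ± 22.5, Kif1b at 205.5 ± 14.3, Kifap3 at 154 ± 10.3, Kif3c at 114 ± 7.38, Kif3a at 95.4 ± 6.28, Kif21a at 81.8 ± 6.45 and Kif5b at 81.5 ± 6.55 TPM. Each gene was above the next one down in 24 of 24 libraries, with a single exception: Kif21a was above Kif5b in 15 of 24, and their means differed by less than the spread between mice.

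**Figure D1:**
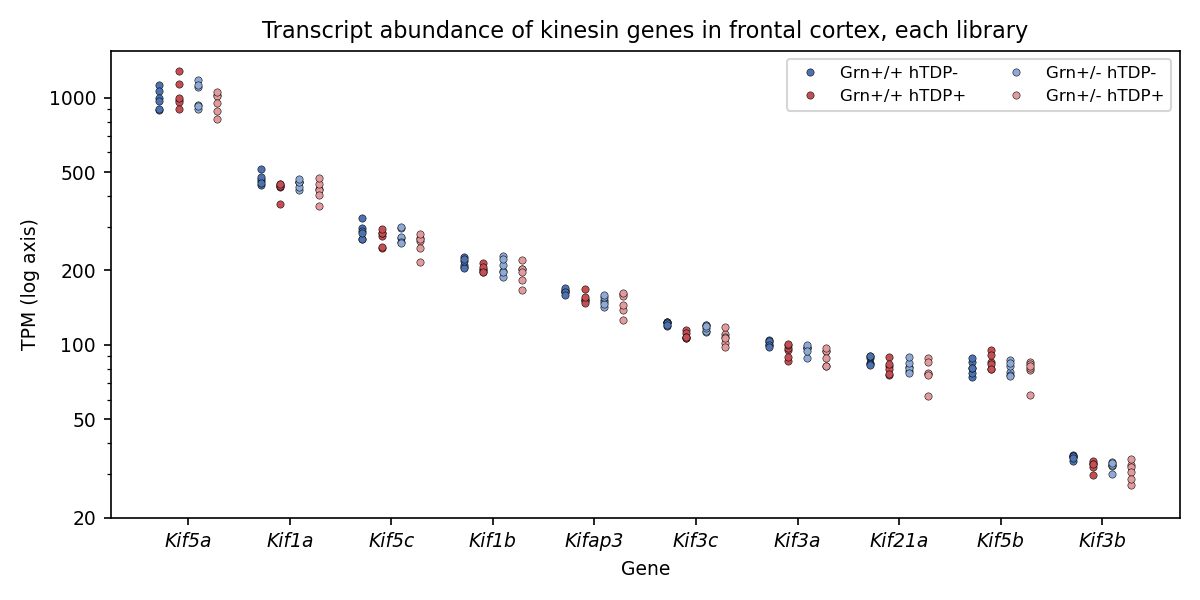
TPM on a log axis for the 10 genes, ordered by mean; each point is 1 library and colours are the 4 genotype groups of 6 mice. The order of the genes is shared by all groups except for Kif21a and Kif5b, whose points cover nearly the same range (means of 81.8 and 81.5 TPM).

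Kif3c encodes a kinesin-2 motor subunit that is enriched in neurons. The gene lies on chromosome 12 (GRCm38, 3365132 to 3406494, plus strand, ENSMUSG00000020668). In Grn+/+ hTDP- mice its level ran from 334 to 349 CPM with a median of 342, and in Grn+/+ hTDP+ mice from 296 to 318 CPM with a median of 309.5. Those 2 groups did not overlap: the highest transgenic library lay below the lowest one without the transgene. Among all genes tested, 0.504% separated these groups in this way, and 1 of the 10 members did. That member was Kif3c itself, and these values are part of the comparison that chose it. Nothing is therefore read from this count. In Grn+/- hTDP- mice Kif3c ran from 321 to 344 CPM (median 330), and in Grn+/- hTDP+ mice from 287 to 332.5 CPM (median 302). Here the groups overlapped through a single mouse, replicate 5 at 332.5 CPM, and the other 5 transgenic mice stood at 309.9 CPM or less. In these Grn+/- groups 0 of 10 members and 0.192% of all genes did not overlap.

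Averaged over both Grn genotypes, the transgenic level of Kif3c was 0.911 of that without the transgene, a log2 change of −0.13 (SE 0.0220, 95% interval −0.18 to −0.09). The log2 change was −0.14 in Grn+/+ and −0.13 in Grn+/- mice. Within a single Grn genotype edgeR called 0 of 10 members, beside 0.0329% of all genes in Grn+/+ and 0.0219% in Grn+/- mice. Of the members, limma voom called 0 in both, and DESeq2 called Kif3c in Grn+/+ mice. There DESeq2 called 29 of all genes, against 6 in edgeR. These changes make up the average that chose Kif3c. In females the level was 337.5 ± 10.3 CPM without and 309.8 ± 13.7 CPM with the transgene (n = 6 each), a ratio of 0.918. In males it was 336 ± 7.62 and 304 ± 10.8 CPM, a ratio of 0.904. The ratios by sex split the same 24 libraries that chose Kif3c and are no separate evidence. Kif3c was 1 of 20 genes that edgeR called in the average comparison, 0.11% of those tested, and 1 of the 14 called lower, 0.0768%. Since this comparison chose the gene, nothing is read from that call. Leaving out any of the 24 libraries kept the log2 change between −0.15 and −0.13. With age in months added as a factor, an alternative chosen after seeing the data, the log2 change was −0.12 (SE 0.0346) and the call was lost (edgeR adjusted p = 1). In that fit 4 of the 6 Grn+/- hTDP- mice had ages found in no other group.

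The Kif3c messenger RNA carries many TG repeats, written here in DNA letters. The hexamer TGTGTG was searched on the transcript strand alone, with overlapping matches counted, in the transcript of each gene with the most reads (GENCODE M21, GRCm38). Kif3c-201, which took 61.9% ± 1.67 of the gene's reads (n = 24), held 22 matches in 6791 bases, all of them in the 3' UTR, and 10 began within the first 117 bases after the coding part. Of 14700 coding transcripts of the genes tested, 72.9% held the hexamer at least once, the median count was 2, 2.39% held 22 or more, and 3.97% held it as densely. Kif3c-205, which took 37.8% ± 1.91 of the reads, shares the coding part, has a shorter 3' UTR of 1182 against 3612 bases, and held 13 matches, a count that 4.68% of the 14700 transcripts reached and a density that 4.09% reached. Reads favour the longer transcript: per length, Kif3c-205 was slightly the higher, at 57.4 ± 5.04 TPM against 55.5 ± 4.29 TPM (SD, n = 24). The richest windows of 30 bases in 4 members are shown because they differ in how long and how unbroken the repeat is; capitals mark the matches.
Kif3c: tTGTGTGTGTGgtatgtatgcaTGTGTGTG
Kif1b: ctctgtaTGTGTGTGTGTGTGTGtctgtct
Kif5c: aaTGTGTGTGcttatgcacatgcgTGTGTG
Kif3b: ctccttaggacTGTGTGTGgagccttggcc
All 4 lie in 3' UTRs: chr12:3402947-3402976 on the plus strand for Kif3c, where both of its main transcripts hold the window, chr4:149180077-149180106 on the minus strand for Kif1b, chr2:49772607-49772636 on the plus strand for Kif5c, and chr2:153330536-153330565 on the plus strand for Kif3b. The Kif3c window holds 5 matches in separate runs, whereas that of Kif1b holds 6 in 1 run of 16 bases, a run length reached by 4.80% of transcripts.

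The other members held fewer matches. Kif1b-203 had 14, of which 11 were in the 3' UTR, Kif5c-201 had 6 and Kif1a-204 had 5. Kif3a, Kif3b, Kifap3 and Kif5a had 4 each in their main transcript, Kif21a had 2 and Kif5b had 0. Kif3b, the other partner of Kif3a, had all 4 of its matches in the 3' UTR, and Kif21a had both of its matches in the coding part. Beside these counts, and as a description across genes that are not independent, the median log2 change with the transgene was 0.02 over 3988 genes without the hexamer and −0.03 over the 351 with as many as Kif3c or more, of which 63.0% lay below 0. Over the 583 genes that held it as densely as Kif3c, the median was −0.007 and 54.0% lay below 0, beside 49.0% of all 14700. Transcript length moved with both: the median length was 1914.5 bases without the hexamer and 5730 with as many as Kif3c, and across the 14700 genes Spearman's rho with the log2 change was −0.19 for the count of hexamers and −0.32 for length. Median level also rose, from 13.6 CPM without the hexamer to 37.4 CPM with as many as Kif3c or more. The parts of length and level in the relation were not tested. A match is a run of letters and not a site of binding.

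**Figure D2:**
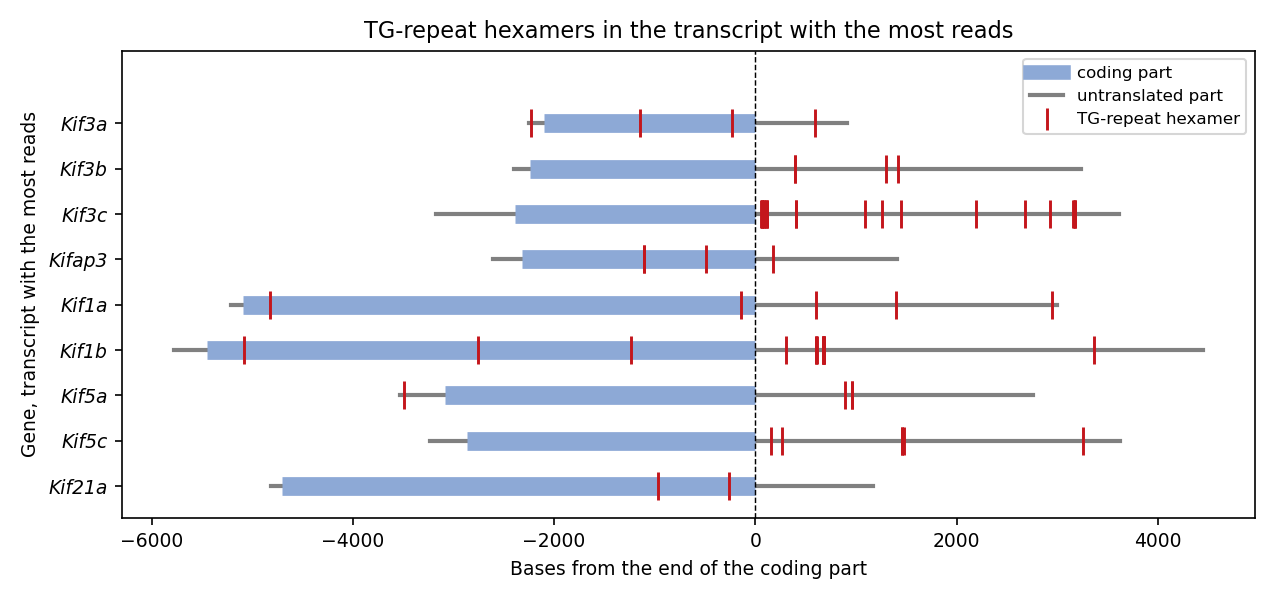
Position of each TG-repeat hexamer (red marks) in the transcript with the most reads of 9 members, in bases from the end of the coding part at 0; blue bars are coding parts and grey lines untranslated parts, and Kif5b, which has none, is not drawn. Kif3c has 22 marks, all right of 0, and Kif21a has 2, both left of 0.

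The other kinesin-2 subunit genes had log2 changes of −0.07 to −0.04 with the transgene. Kif3b encodes the motor subunit that pairs with Kif3a in the heterotrimeric form of kinesin-2. It ran from 99.5 to 104.3 CPM in Grn+/+ hTDP- mice (median 102.7) and from 89.1 to 100.2 CPM in Grn+/+ hTDP+ mice (median 96.3). In Grn+/- mice it ran from 90.3 to 97.9 CPM without the transgene (median 96.9) and from 82.0 to 101.7 CPM with it (median 93.3). The transgenic ranges overlapped the others in both genotypes. The average log2 change of Kif3b with the transgene was −0.07 (SE 0.0274), and it was −0.05 without the 2 libraries that stood apart. Leaving out single libraries moved it between −0.09 and −0.06.

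Kif3a, the subunit common to both kinesin-2 pairs, had ranges of 129.9 to 138.0 CPM (median 134.3) and 117.1 to 134.2 CPM (median 128.4) in Grn+/+ mice lacking and carrying the transgene. In Grn+/- mice its ranges were 121.6 to 133.3 (median 128.7) and 113.6 to 128.6 CPM (median 124). Both pairs overlapped, and the average log2 change was −0.07 (SE 0.0254). Kifap3 encodes the associated protein that links the kinesin-2 pair of Kif3a and Kif3b to cargo. It ran from 320 to 340.1 CPM (median 332) and 305.5 to 342 CPM (median 310.4) in Grn+/+ mice, and from 295 to 326 CPM (median 305) and 273 to 330.1 CPM (median 311) in Grn+/- mice, lacking and carrying the transgene. Its ranges overlapped in both genotypes. The average log2 change was −0.04 (SE 0.0297). Leaving out single libraries moved it between −0.05 and −0.02, the latter without replicate 6 of the Grn+/- hTDP+ group.

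**Figure D3:**
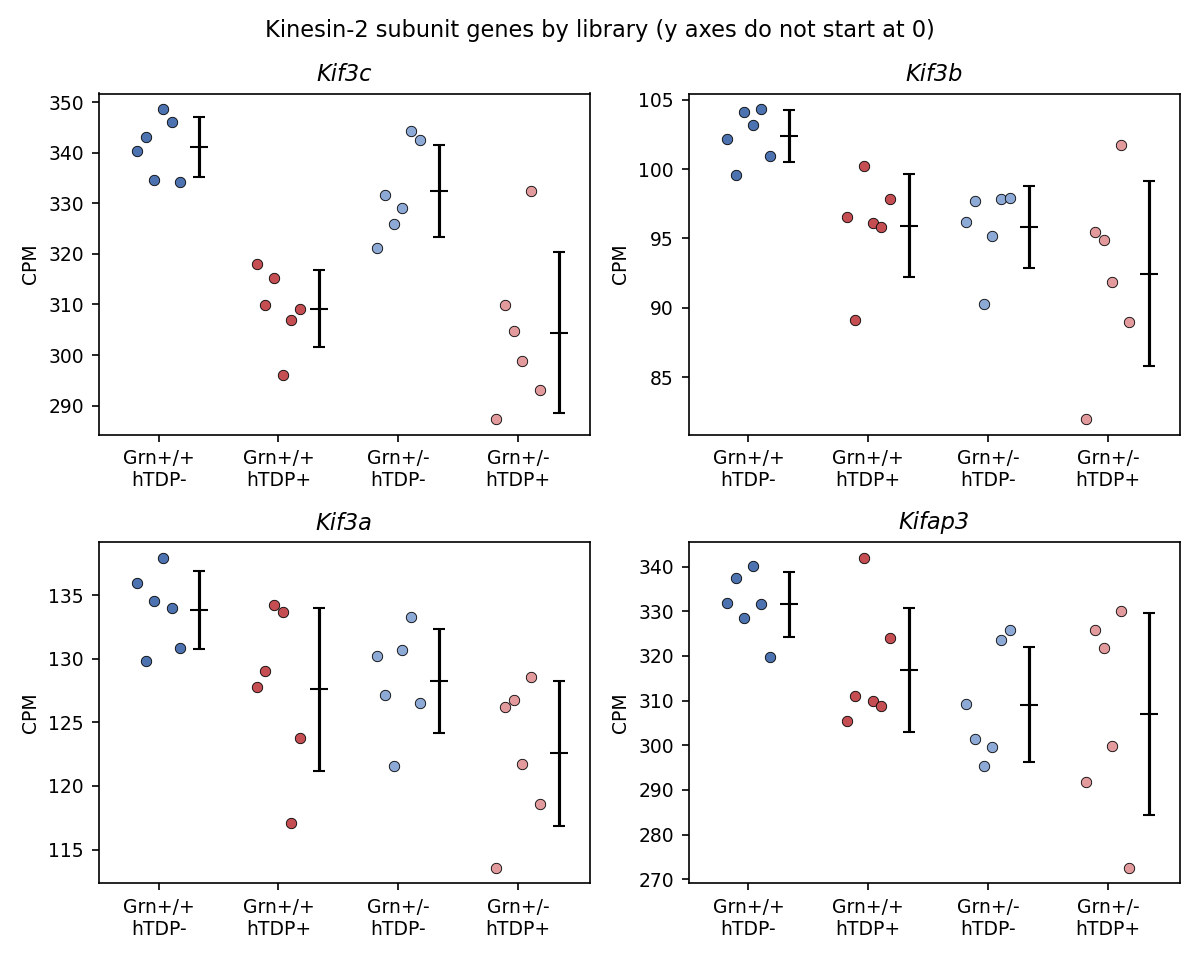
CPM of the 4 kinesin-2 subunit genes by genotype group; each point is 1 library, and the bar beside each group is the mean ± SD (n = 6). The axes do not start at 0. For Kif3c the 6 Grn+/+ hTDP+ libraries (296 to 318 CPM) all lie below the 6 Grn+/+ hTDP- libraries (334 to 349 CPM), while the groups of the other 3 genes overlap in that comparison. These Kif3c values are part of the comparison that chose the gene.

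By level, Kif3c exceeded Kif3b in every library. It made up 77.6% ± 0.496 (SD, n = 6) of the summed TPM of Kif3b and Kif3c in Grn+/+ hTDP- mice and 77.0% ± 0.635 in Grn+/+ hTDP+ mice. The share was 78.4% ± 0.535 in Grn+/- hTDP- and 77.6% ± 0.677 in Grn+/- hTDP+ mice. The 24 libraries lay between 76.5% and 79.1%.

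The kinesin-1 heavy chains gave values on both sides of 0. Kif5a, in which mutations cause hereditary spastic paraplegia and amyotrophic lateral sclerosis in humans, ran from 2897 to 3692 CPM (median 3217) in Grn+/+ hTDP- and from 2948 to 4287 CPM (median 3262) in Grn+/+ hTDP+ mice. In Grn+/- mice it ran from 2973 to 3838 CPM (median 3404) without the transgene and from 2784 to 3485 CPM (median 3350) with it. Its average log2 change was 0.01 (SE 0.0612), and leaving out single libraries moved it between −0.04 and 0.03. Kif5b, the heavy chain made in most cell types, ran from 225 to 270.5 CPM (median 247) and 244.1 to 302 CPM (median 259) in Grn+/+ mice lacking and carrying the transgene, and from 233 to 266 CPM (median 251) and 201 to 272 CPM (median 254) in Grn+/- mice. Its average log2 change was 0.04 (SE 0.0450), the highest of the 10. It was 0.07 without the 2 libraries that stood apart, and 0.02 without replicate 5 of the Grn+/+ hTDP+ group. Kif5c, a neuronal heavy chain, ran from 915 to 1120 CPM (median 977) and 865 to 1020 CPM (median 951) in Grn+/+ mice, and from 873 to 1070 CPM (median 951) and 792 to 977 CPM (median 925) in Grn+/- mice. Its average log2 change was −0.07 (SE 0.0382), or −0.04 without the 2 libraries that stood apart. With single libraries left out it ran from −0.09 to −0.05. All kinesin-1 ranges overlapped between transgenic and other mice. Of the summed TPM of the 3 heavy chains, Kif5a held 73.8% ± 1.25, Kif5c 20.2% ± 1.14 and Kif5b 6.01% ± 0.288 (SD, n = 24).

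For the kinesin-3 motors and Kif21a the log2 changes were −0.07 to −0.05. Kif1a carries synaptic and dense-core vesicles. It ran from 1568 to 1791 CPM (median 1683) and 1523 to 1679 CPM (median 1592) in Grn+/+ mice, and from 1559 to 1759 CPM (median 1631) and 1486 to 1677 CPM (median 1584) in Grn+/- mice, lacking and carrying the transgene. The log2 change averaged −0.06 (SE 0.0283). By sex, the ratio of transgenic to other mice was 0.993 in females and 0.928 in males. Kif1b, a vesicle and mitochondrial motor, ran from 912 to 1031 CPM (median 971) and 886 to 966 CPM (median 922) in Grn+/+ mice, and from 859 to 1012 CPM (median 959) and 746 to 995 CPM (median 917) in Grn+/- mice. The log2 change averaged −0.07 (SE 0.0370). Leaving out single libraries moved it between −0.09 and −0.04, the latter without replicate 1 of the Grn+/- hTDP+ group. Kif1b lies 0.549 Mb from mouse Tardbp on chromosome 4. Kif21a is a kinesin-4 protein that limits microtubule growth near the cell cortex and thus falls outside the kinesin classes named in the choice of genes. It ran from 251 to 268 CPM (median 260.5) and 234.5 to 271 CPM (median 246) in Grn+/+ mice, and from 236 to 256 CPM (median 239) and 206 to 256 CPM (median 234) in Grn+/- mice. The log2 change averaged −0.05 (SE 0.0308). With single libraries left out it ran from −0.07 to −0.03, the latter without replicate 6 of the Grn+/- hTDP+ group. All ranges of these 3 genes overlapped between transgenic and other mice.

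Over the family, 8 of 10 members had a log2 change below 0 with the transgene, with a median of −0.06, where 48.4% of all genes tested lay below 0 and their median was 0.003. This comparison chose Kif3c and with it the family. With age as a factor, 9 of 10 members lay below 0, and the values were −0.04 for Kif3a, −0.04 for Kif3b, −0.02 for Kifap3, −0.07 for Kif5a and 0.002 for Kif5b. Of the neuronal marker lists, 10 of 11 excitatory neuron markers (median −0.04) and 8 of 9 pan-neuronal markers (median −0.06) lay below 0, and none of either list passed edgeR's test. The summed level of the pan-neuronal markers ran from 7080 to 8257 CPM in Grn+/+ hTDP- mice and 6477 to 7853 CPM in Grn+/+ hTDP+ mice, and from 6915 to 8198 CPM in Grn+/- hTDP- mice and 6546 to 7596 CPM in Grn+/- hTDP+ mice. All 10 oligodendrocyte markers lay above 0, with a median of 0.27, and their summed level ran from 1216 to 2994, 1960 to 4196, 1322 to 5536 and 1225 to 3087 CPM in the same order. Of the markers of other cells, 4 of 7 for inhibitory neurons lay below 0 (median −0.03), as did 2 of 4 for oligodendrocyte precursors (0.005), 2 of 8 for astrocytes (0.02), 6 of 8 for microglia (−0.02), 0 of 8 for endothelial and mural cells (0.08), 1 of 6 for choroid plexus and ependyma (0.40) and 1 of 7 for striatum and olfactory bulb (0.16), and edgeR called 0 of them. The part of these markers in the kinesin values was not tested. In bulk tissue, fewer cells of a type and less RNA per cell cannot be told apart.

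**Figure D4:**
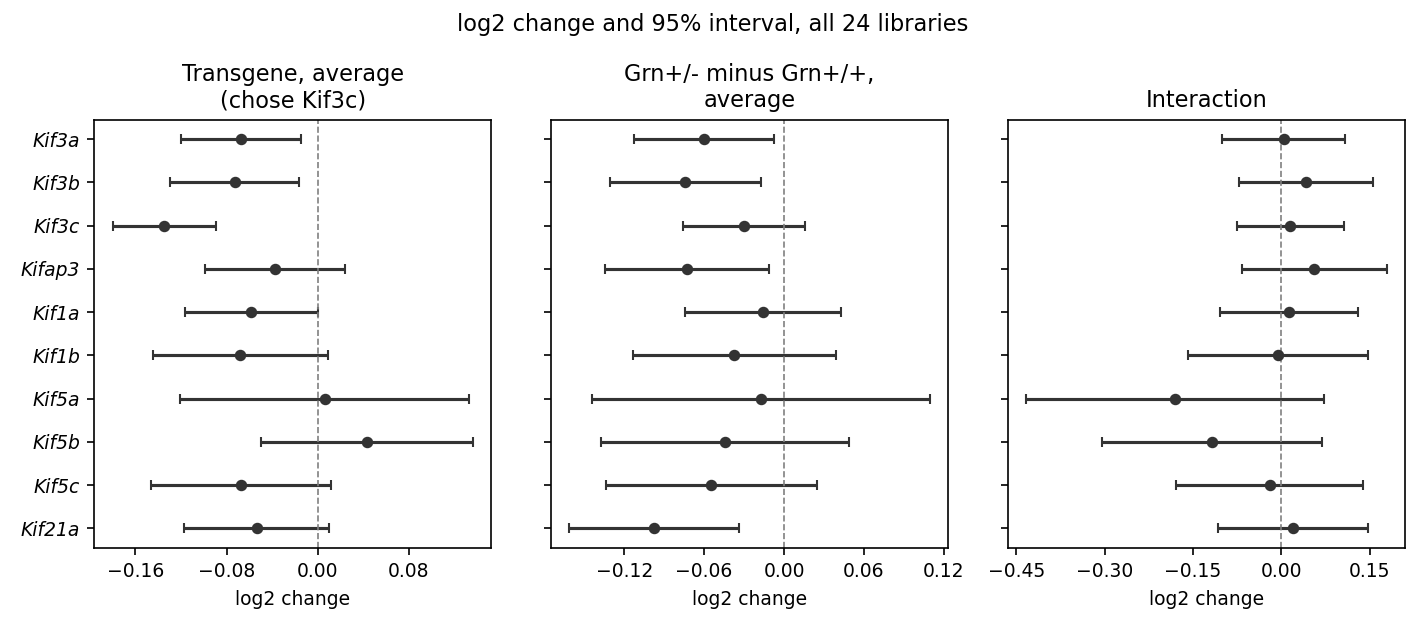
log2 change and 95% interval of the 10 members in edgeR's fit over 24 libraries: the average transgene effect, which chose Kif3c, the average effect of Grn heterozygosity, and the interaction (change with the transgene in Grn+/- mice less the change in Grn+/+ mice). With Grn heterozygosity all 10 points lie left of 0, from −0.10 for Kif21a to −0.02 for Kif1a, and for the interaction every interval includes 0.

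Loss of 1 Grn allele gave log2 changes below 0 for every member, and none passed the test. The genes were chosen by the transgene effect on Kif3c and not by this comparison, though with earlier results of these data known. The average log2 change from Grn+/+ to Grn+/- was −0.10 (SE 0.0308) for Kif21a, −0.07 (SE 0.0274) for Kif3b, −0.07 (SE 0.0297) for Kifap3 and −0.06 (SE 0.0254) for Kif3a. These 4 had unadjusted p-values of 0.00430, 0.0126, 0.0220 and 0.0273 and an edgeR adjusted p of 0.926 each. Kif5c had −0.05, Kif5b −0.04, Kif1b −0.04, Kif3c −0.03 (SE 0.0220, edgeR adjusted p = 0.937), Kif5a −0.02 and Kif1a −0.02. All 10 thus lay below 0, with a median of −0.05, against 46.5% of all genes and a median of 0.005. The Kif21a value became −0.06 when counts were built from length-scaled TPM, Kif1b became −0.01 without replicate 1 of the Grn+/- hTDP+ group, and Kif5a ranged from −0.04 to 0.02 as single libraries were left out. Kif5b became −0.02 without replicate 5 of the Grn+/+ hTDP+ group, and Kif1a −0.004 without replicate 6 of the Grn+/+ hTDP- group. With age as a factor 7 of 10 members lay below 0, and Kif5a stood at 0.07, Kif1a at 0.005 and Kif5b at 0.005.

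Of all genes tested, 4 were called in the average Grn comparison (0.0219%), and 0 of 10 members were called by edgeR, DESeq2 or limma voom. At an unadjusted p under 0.05, edgeR had 4 of 10 members, beside 4.93% of all genes. The 10 genes rest on the same 24 libraries and vary together, so their shared direction is not 10 separate observations. In the same comparison all 8 astrocyte, all 8 microglia and all 8 endothelial and mural markers lay above 0 (medians 0.09, 0.10 and 0.08), and all 10 oligodendrocyte markers lay below 0 (median −0.08). Of the neuronal lists, 7 of 9 pan-neuronal (median −0.04), 6 of 11 excitatory (median −0.07) and 4 of 7 inhibitory markers (median −0.02) lay below 0. edgeR called 0 of all these markers; their part in the kinesin values was not tested.

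Kif3b was the member whose groups separated by Grn. Without the transgene, its 6 Grn+/- libraries (90.3 to 97.9 CPM) all lay below its 6 Grn+/+ libraries (99.5 to 104.3 CPM), a pattern that 0.395% of all genes showed and 1 of the 10 members did. The log2 change there was −0.10 (SE 0.0387, edgeR adjusted p = 0.9999), and it was −0.05 (SE 0.0387) with the transgene, where the groups overlapped. With age as a factor the value without the transgene was −0.14 (SE 0.0651). Kifap3 had −0.10 (SE 0.0421) without and −0.05 (SE 0.0421) with the transgene, and Kif21a −0.11 (SE 0.0435) and −0.09 (SE 0.0435). None of the 10 members passed edgeR's test in either background, where it called 0.011% of all genes without and 0.00548% with the transgene, and with the transgene 0 of 10 members and 0.104% of all genes had groups that did not overlap. With the transgene, the Kifap3 value was −0.01 and the Kif21a value −0.05 without replicate 6 of the Grn+/- hTDP+ group, and the Kif3b value was −0.02 without replicate 1 of that group.

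Whether the transgene acted differently in Grn+/- mice was tested with the interaction, in which the log2 change of Grn+/+ mice is taken from that of Grn+/- mice. For Kif3c this was 0.01 (SE 0.0439, 95% interval −0.08 to 0.11, edgeR adjusted p = 1), and without replicate 5 of the Grn+/- hTDP+ group it was −0.01. The lowest values were those of Kif5a, −0.18 (SE 0.123, interval −0.43 to 0.07), and Kif5b, −0.12 (SE 0.0900, interval −0.30 to 0.07), and without replicate 5 of the Grn+/+ hTDP+ group, the highest library for both genes, they became −0.10 and −0.07. With age as a factor they were −0.32 and −0.19 (edgeR adjusted p = 1 for each). The other 7 members lay between −0.02 and 0.06. Oligodendrocyte markers had interaction values below 0 in 10 of 10 cases, with a median of −0.88, and their part in the Kif5a and Kif5b values was not tested. No gene of all those tested was called by edgeR or limma voom for the interaction (0%), 434 had an unadjusted p under 0.05 in edgeR, and DESeq2 called 3, none of them a member.

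Sex was a further comparison by which the genes were not chosen, though earlier results of these data were known. All 10 members had values below 0 for males against females, with log2 changes from −0.08 for Kif5c (SE 0.0382, edgeR adjusted p = 0.823) and −0.08 for Kif5b (SE 0.0450) to −0.01 for Kif1a. Of all genes, 49.3% lay below 0, and with length-scaled TPM 8 of 10 members did. In the same comparison 10 of 10 oligodendrocyte markers (median −0.29) and 7 of 9 pan-neuronal markers (median −0.04) lay below 0 and 8 of 8 endothelial and mural markers above it, and their part in the kinesin values was not tested. 0 of 10 were called by edgeR, DESeq2 or limma voom, beside 13 of all genes (0.0713%) with edgeR. In edgeR 1 of 10 members, Kif5c, had an unadjusted p under 0.05 (0.0470), as did 5.99% of all genes. For Kif3c the value was −0.02 (SE 0.0220).

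Each member was read mostly from 1 or 2 transcripts. Kif3c-201 took 62.3% ± 1.73 of the gene's reads (SD, n = 6) in Grn+/+ hTDP- mice and 62.3% ± 2.15 in Grn+/+ hTDP+ mice, and 61.8% ± 1.61 in Grn+/- hTDP- mice and 61.2% ± 1.33 in Grn+/- hTDP+ mice. Kif3c-205 took nearly all the rest. Both transcripts had lower means with the transgene: Kif3c-201 measured 60.1 ± 2.29 TPM and 53.6 ± 2.47 TPM, and Kif3c-205 61.5 ± 2.52 and 54.6 ± 3.90 TPM, in Grn+/+ mice without and with it. Kif3a-203 took 69.3% of Kif3a reads, Kif1a-204 78.4% of Kif1a, Kif1b-203 90.4% of Kif1b and Kif21a-204 53.5% of Kif21a, while Kif5a, Kif5b and Kif5c were read at 99.2% or more from a single transcript. By Grn genotype, transcript usage could be tested for Kif3a, Kif3c, Kif1a, Kif1b and Kif21a. 0 of these 5 were called by edgeR (diffSpliceDGE, adjusted p = 1 for each) or by limma's diffSplice (adjusted p from 0.564 to 0.816), none had an unadjusted p under 0.05 in either, and 3 of 7877 genes were called by edgeR (0.0381%).

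The kinesins also varied between mice of the same genotype. After group means and sex were removed, the 45 pairs of members had a median Pearson's r of 0.451 over the 24 libraries, and 39 were above 0. The kinesin-1 heavy chains varied together, with r = 0.876 for Kif5a with Kif5b (Spearman's rho 0.875, and r = 0.821 without the 2 libraries farthest from the median) and 0.839 for Kif5a with Kif5c (rho 0.865, r = 0.807). Kif3c varied with Kifap3 (r = 0.704, rho 0.700, r = 0.661 without 2 libraries), Kif3b (0.691, rho 0.649, 0.738) and Kif21a (0.669, rho 0.723, 0.570). Kifap3 and Kif21a stood at r = 0.859 (rho 0.740, 0.747). Kif3a varied with Kif3b (r = 0.608, rho 0.616, 0.616), Kifap3 (0.573, rho 0.603, 0.582), Kif21a (0.554, rho 0.460, 0.477) and Kif3c (0.451, rho 0.430, 0.401). Kif3a went the other way from Kif5a, at r = −0.489 (rho −0.458, −0.531), and Kif5b, at −0.301 (rho −0.399, −0.512). With Kif1b, Kif5c and Kif1a its r was 0.265, −0.099 and −0.168. These are descriptions without a test: all points share their library, its scaling and its cell makeup.

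**Figure D5:**
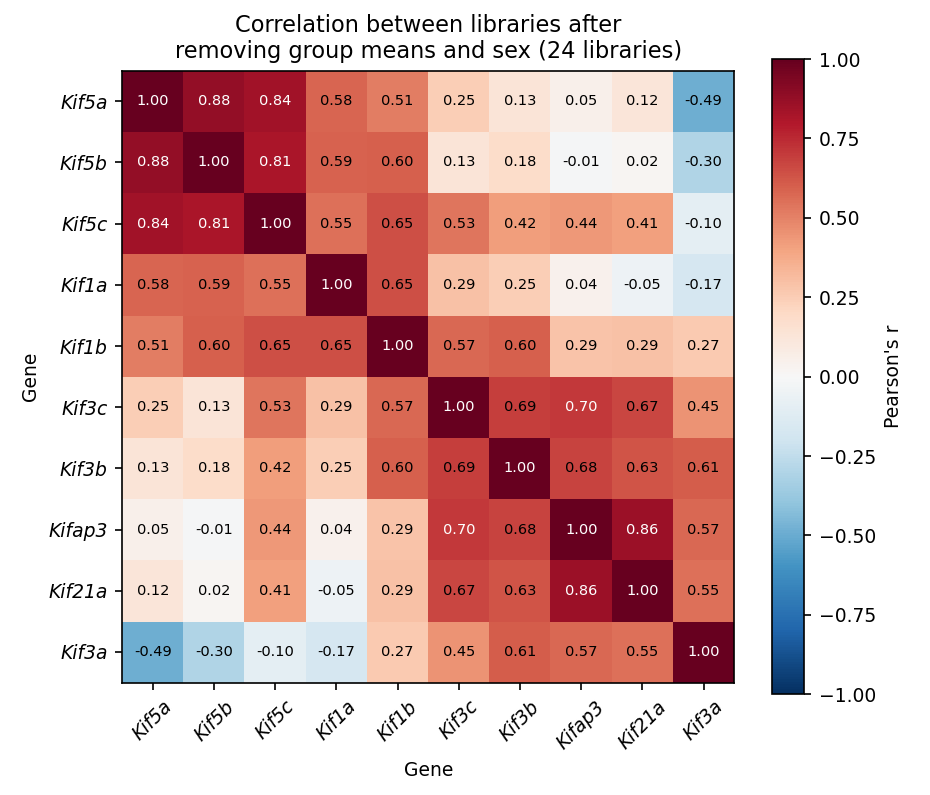
Pearson's r between members over 24 libraries, from log2 CPM after removal of group means and sex; red is above 0 and blue below. Kif5a, Kif5b and Kif5c form a block of r from 0.81 to 0.88, and Kif3c, Kif3b, Kifap3 and Kif21a a block of r from 0.63 to 0.86. Kif3a has r from 0.45 to 0.61 with the genes of that second block.

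Among 9813 genes at 10 CPM or more, those that varied most like Kif3c were Tbc1d9 (r = 0.810), Dnajc5, the cysteine string protein chaperone of synaptic vesicles (0.807), the postsynaptic scaffold gene Frmpd4 (0.804), the kinase gene Gsk3b (0.802), Myo5a, an actin-based motor (0.800), Dnajc6, auxilin (0.796), Ppp1r9a, neurabin (0.790), and Agtpbp1, which removes glutamates from tubulin (0.789). Spearman's rho of these 8 ran from 0.747 to 0.861, and r without the 2 farthest libraries from 0.651 to 0.767. The median r of Kif3c with all 9813 genes was 0.0345. Kifap3 ranked 71, Kif3b 89 and Kif21a 133 in this order, and Kif5b ranked 3901.

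Other motors and the partners of kinesin are described by list. Of 32 other kinesin motor genes, 28 could be tested. With the transgene 13 were below 0 (median 0.01), and with Grn heterozygosity 9 were below 0 (median 0.04). The lowest with the transgene were Kif9, a kinesin of cilia and flagella, at −0.25 (SE 0.0648) and Kif7, a ciliary regulator of Hedgehog signalling, at −0.20 (SE 0.109), and the highest were Kif6 (0.18, SE 0.136) and Kif19a (0.16, SE 0.115). With Grn heterozygosity Kif4, a mitotic kinesin, had −0.27 (SE 0.137), Kif9 −0.07, Kif22 0.25 (SE 0.198) and Kif7 0.26 (SE 0.109), which had the smallest p of the list (0.0238, edgeR adjusted p = 0.926). All of these stood at 1.05 to 3.12 CPM, far below the members. Replicate 2 of the Grn+/+ hTDP+ group was 0.56 below the mean of all libraries over this list on the log2 scale.

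Kinesin light chains and cargo adaptors numbered 32, all tested. With the transgene 23 were below 0 (median −0.02), and with Grn heterozygosity 15 were (median 0.002). Madd, an adaptor that binds Kif1a and Kif1b to vesicles, had the smallest p among the adaptors with Grn heterozygosity (−0.06, SE 0.0260, edgeR adjusted p = 0.926). It was among the lowest with the transgene (−0.10, SE 0.0260), where DESeq2 called it and edgeR and limma voom did not. The light chain gene Klc3 had −0.21 (SE 0.316) with the transgene and 0.20 (SE 0.317) with Grn heterozygosity at 1.58 CPM. Its level was 1.26 ± 0.683 CPM (SD) in Grn+/+ hTDP+ mice and averaged 1.66 to 1.70 CPM in the other groups. Replicate 2 of the Grn+/+ hTDP+ group was 0.29 below the mean of all libraries over these adaptors on the log2 scale. No value of this list is given without that library. The highest with the transgene were Hap1, a partner of huntingtin (0.09, SE 0.130), and Ppfia1, a liprin scaffold (0.05, SE 0.0346). With Grn heterozygosity the lowest were Pex5l (−0.08, SE 0.0603) and Rhot1, the mitochondrial anchor of kinesin-1 (−0.07, SE 0.0335), and Kank2 stood at 0.12 (SE 0.0922).

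Dynein, which walks the opposite way, and its cofactor dynactin gave 30 tested genes. With the transgene 13 were below 0 (median 0.01), and with Grn heterozygosity 17 were (median −0.01). Dync1h1, the dynein heavy chain, had −0.10 (SE 0.0546) and Pafah1b1, the dynein regulator Lis1, −0.05 (SE 0.0328) with the transgene, and Nde1 had 0.16 (SE 0.0788) and Dynlt1b 0.19 (SE 0.0792). Dynlt1b, with Dynlt1f, belongs to a set of near-identical light chain genes whose reads may be split between copies. With Grn heterozygosity Bicd1 had −0.09 (SE 0.0389), Pafah1b1 −0.08 (SE 0.0328), with the smallest p of the list (0.0303, edgeR adjusted p = 0.926), Nde1 0.08 (SE 0.0789) and Dynlt1f 0.19 (SE 0.0953). Over the 3 lists, edgeR and limma voom called 0 genes in either comparison. In edgeR, 2 of 28 other motors, 3 of 32 adaptors and 1 of 30 dynein genes had an unadjusted p under 0.05 with the transgene. With Grn heterozygosity 2, 2 and 3 did. Of all genes tested, 7.86% with the transgene and 4.93% with Grn heterozygosity had such a p. DESeq2 called 1 gene of the 3 lists, Madd, with the transgene.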

How the data were processed

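Bulk RNA sequencing of poly-A RNA from frontal cortex was analysed in 24 mice. Per the file headers, the authors deposited 1 Salmon quantification per library over 149444 transcripts, holding expected counts (estimated reads, often fractional), TPM and the effective length of each transcript. STAR, SAMtools, Salmon and DESeq2 are the tools in the submitters' processing notes; the build they used is not given in the sources used here. Per the labels' protocols, library steps with and without strand marking are described, so genes that overlap on opposite strands may share reads. Transcripts were matched by identifier to GENCODE M21 (GRCm38), which placed 138032 of them (92.4%) in 52352 genes. The unmatched ones held 1.17% to 1.66% of a library's reads and were left out.

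Deposited expected counts were summed per gene, rounded, scaled by TMM and filtered with edgeR's default rule. Tests were edgeR's quasi-likelihood test (edgeR 4.0.16, R 4.3.3), two-sided, fitted to all 24 libraries with genotype group and sex as terms. P-values were Benjamini-Hochberg adjusted over 18239 genes, with 0.05 as the threshold for a call. CPM levels use TMM-scaled library sizes, and log2 CPM a prior count of 1. The average transgene and average Grn effects are means over the other genotype. Transcript usage used edgeR's diffSpliceDGE on transcripts with at least 5% of their gene. Likeness to Kif3c is Pearson's r of log2 CPM residuals after group means and sex.

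The fit was tested on simulated data of 18094 genes for the average Grn effect, where it recovered 65.7% of genes changed 1.25-fold, 83.6% at 1.5-fold and 95.5% at 2-fold. It also called 10 genes that had not been changed. The members' changes with Grn heterozygosity were smaller than 1.25-fold, a size that was not simulated. Alternatives were DESeq2 1.42.0 and its size factors, limma 3.58.1 with voom, no filter, age as a linear term or (added after seeing the data) as a factor, no sex term, length-scaled TPM counts, fits of only the 2 groups compared, and leaving out libraries.

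The members, lists and settings were chosen with earlier results of these data known. Named from each list of motors, adaptors and dynein genes are every gene called, that with the smallest p in the Grn effect, and the 2 highest and 2 lowest log2 changes in each average effect at 1 CPM or more, besides the 8 genes most like Kif3c at 10 CPM or more. Marker lists covered excitatory, inhibitory and pan-neuronal genes, oligodendrocytes and their precursors, astrocytes, microglia, endothelium and mural cells, choroid plexus and ependyma, and striatum and olfactory bulb.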

Additional observations from a re-analysis of the deposited data

Results flagged for a closer look

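Each of the 10 members was examined in each of the 4 groups of 6 mice for a library whose gap to the next one took up most of the group's range. By Dixon's 95% critical value for 6 samples, 4 of 40 such sets had one, and chance alone would give about 1 in 20. Kif3b stood at 90.3 CPM in replicate 3 of the Grn+/- hTDP- group, below the 95.2 to 97.9 CPM of the other 5. Without that mouse the log2 change of Kif3b with Grn heterozygosity in the absence of the transgene was −0.08, against −0.10 with it. Kif21a stood at 255.6 CPM in replicate 6 of the same group, above the 236.0 to 242.2 CPM of the others. Kif1b stood at 746 CPM and Kif5c at 792 CPM in replicate 1 of the Grn+/- hTDP+ group, below 901 to 995 and 905 to 977 CPM in the other mice. In that library the members averaged 0.21 below the mean of all libraries on the log2 scale, while pan-neuronal markers averaged 0.02 above it, excitatory neuron markers 0.05 below it and oligodendrocyte markers 0.47 below it; the part of these markers in the kinesin values was not tested.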

How the results depend on the processing

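The average transgene effect chose Kif3c, so its calls there are a description of the fits and nothing is read from them. Kif3c kept its call in that effect under 8 of 9 other settings (log2 change −0.14 to −0.13). It also kept it in all 24 leave-one-out fits (edgeR adjusted p from 0.000555 to 0.0204). The exception was age as a factor, added after seeing the data: 0 members and 2 genes were called in that effect, 0 genes for the transgene in Grn+/- mice, 1 for the average Grn effect, and 0 for Grn without and 0 with the transgene. There the sign turned for Kif5a (−0.072 with the transgene, 0.071 with Grn heterozygosity) and, with Grn heterozygosity, for Kif1a (0.0053) and Kif5b (0.0049). Only 2 of 6 Grn+/- hTDP- mice shared an age with other groups in that fit. For Grn, interaction and sex, 0 members were called in every setting and leave-one-out fit run. For the transgene within 1 Grn genotype, DESeq2, also added after seeing the data, called 29 genes and 1 member (Kif3c) in Grn+/+ mice, and 10 genes and 0 members in Grn+/- mice. Counts over all genes moved more. With DESeq2 the genes called were 61 for the average transgene effect (16 higher, 45 lower, against 6 and 14 in edgeR), 9 for the average Grn effect, 6 and 5 for Grn without and with the transgene, 3 for the interaction and 22 for sex. Grn without the transgene gave 0 genes with age as a linear term, 1 with length-scaled TPM, 0 with only the 2 groups fitted and 0 without the 2 libraries that stood apart, a setting chosen after seeing the data. Grn with the transgene gave 0 with no filter, 0 with length-scaled TPM, 0 with only the 2 groups and 2 without those 2 libraries. The transgene effect with only the 2 groups gave 1 gene in Grn+/+ and 1 in Grn+/- mice. With age as a linear term, 2 members had an interaction below 0. Leaving out single libraries gave 0 to 3 genes for Grn without the transgene, 1 to 2 with it, 2 to 4 for the transgene in Grn+/- mice, and 2 to 8 members with an interaction below 0. The sign turned in some of these fits for Kif5a (−0.039 to 0.031 with the transgene, −0.036 to 0.024 with Grn heterozygosity) and the Kif3c interaction (−0.014 to 0.030). The cause of these moves was not tested.

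No paired analysis was possible because replicate numbers were given in accession order and pair no mice, and the labels used here name no litter. At 6 mice a group the SE of an average transgene effect ran from 0.0220 (Kif3c) to 0.0612 (Kif5a) on the log2 scale, which sets the precision.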
